A study of Mus musculus with 10 samples.

Results

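The chaperone genes of the liver were compared between lactating mice of the QSi5 strain fed 1 of 2 diets from pregnancy to the peak of lactation. The diet of the 5 HGI mice had a high glycaemic index: 51.4% of its weight was glucose, its gross energy was 15.6 MJ per kg, and the mice are labelled as being in positive energy balance. The diet of the 5 LGI mice had a low glycaemic index: 51.4% of its weight was high-amylose starch, its gross energy was 16.3 MJ per kg, and the mice are labelled as being in negative energy balance. Energy balance and diet therefore cannot be told apart. Liver RNA was measured on 1 Affymetrix array per mouse, on which each transcript is read by a probe set, and all levels are log2 values on which a step of 1 is a doubling of signal. Chaperone genes were taken by symbol: the HSP70, HSP90, HSP110, HSP60 and small heat shock protein families, the J proteins (Dnaja, Dnajb, Dnajc), the CCT chaperonin, the protein disulfide isomerases named Pdia, and 8 further genes of the endoplasmic reticulum (ER), which are Calr, Canx, Hyou1, Sdf2l1, Creld2, Manf, Xbp1 and Herpud1. This gave 94 of the 18193 genes with a named probe set, each read at its probe set of the highest mean. By the place where their proteins work, 48 belong to the cytosol and nucleus, 26 to the ER, 8 to mitochondria and 12 to other places such as membranes and vesicles. The mean signal reached 6 log2 in 68 of the 94, and the rest lay below it.

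Chaperones bind unfolded stretches of other proteins and help them to fold, to cross membranes or to be destroyed. HSP70 proteins such as Hspa8 and Hspa5 hold their clients in cycles of ATP use, which J proteins start and HSP110 proteins and other exchange factors end. The hepatocyte secretes most plasma proteins, and these pass through the ER, where the unfolded protein response raises the chaperone genes when unfolded protein accumulates. Heat shock factors do the same for the cytosol, and mitochondria keep an HSP70 and an HSP60 chaperonin of their own.

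The hepatocyte markers Alb, Apoa1, Ttr, Cps1, Pck1, Cyp2e1, Hnf4a and Serpina1c had a mean level of 13.40 to 13.65 log2 on every array. The spread of values was narrowest in HGI 1 (SD 2.16 log2, against 2.26 to 2.31 on the other 9 arrays), and among the 11472 probe sets with a mean of at least 6 log2 this mouse was the lowest of 10 in 5976. By mean correlation with the other arrays of its diet, LGI 4 came last (0.988) and HGI 1 next to last (0.989). Where leaving out either mouse moved the difference of a chaperone gene described here by more than 1.5 times, the value without it is given.

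No chaperone gene differed between the diets past the threshold of an adjusted p under 0.05 (limma with Benjamini-Hochberg adjustment over 45037 probe sets). Of all probe sets 0.0644% passed, and 0.0266% passed with a lower level in HGI. The smallest adjusted p among the 94 genes was 0.346, for Dnajc2, a J protein that sits at the exit of the ribosome. At an unadjusted p under 0.05 there were 5 of the 94 genes (5.32%), all lower in HGI, against 7.54% of all probe sets in either direction, 4.78% in the lower and 2.76% in the higher. These were Dnajc2, the mitochondrial J proteins Dnaja3, Dnajc28 and Dnajc15, and Pdia5, a disulfide isomerase of the ER. All 5 were among the 68 genes with a mean of at least 6 log2 (7.35% of them). Of all probe sets as bright, 13.2% had such a p in either direction and 9.25% in the lower. Differences were below 0, that is lower in HGI, for 65 of the 94 genes (69.1%), against 55.8% of all probe sets. For the brighter genes it was 51 of 68 (75%), against 60% of probe sets as bright. The tissue was measured in bulk, so fewer cells of a type and less RNA per cell cannot be told apart. Some marker lists leaned to HGI, with 0 genes past the threshold. Above 0 were all 11 Kupffer cell and macrophage markers (median 0.28 log2), 9 of 10 liver endothelial (0.15) and all 6 erythroid markers measured (0.18). The hepatocyte markers were mixed (4 of 8 above 0), as were the other lists. The part of cell composition in the chaperone differences was not tested.

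The precision of the arrays sets what these results allow. The 95% interval of the difference lay within 2-fold in either direction for 92 of the 94 genes and within 1.5-fold for 82. Of the 68 genes with a mean of at least 6 log2 it was 66 and 57, so dim genes raise the share within 1.5-fold. The exceptions to 2-fold were Dnajc12 and Sdf2l1. The difference between the diets was smaller than the spread within a diet (pooled SD) for 73 of the 94. The genes nonetheless varied between single mice: the range over the 10 mice exceeded 1 log2 for 21 genes, of which 12 were ER genes, 9 cytosolic and none mitochondrial.

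**Figure D1:**
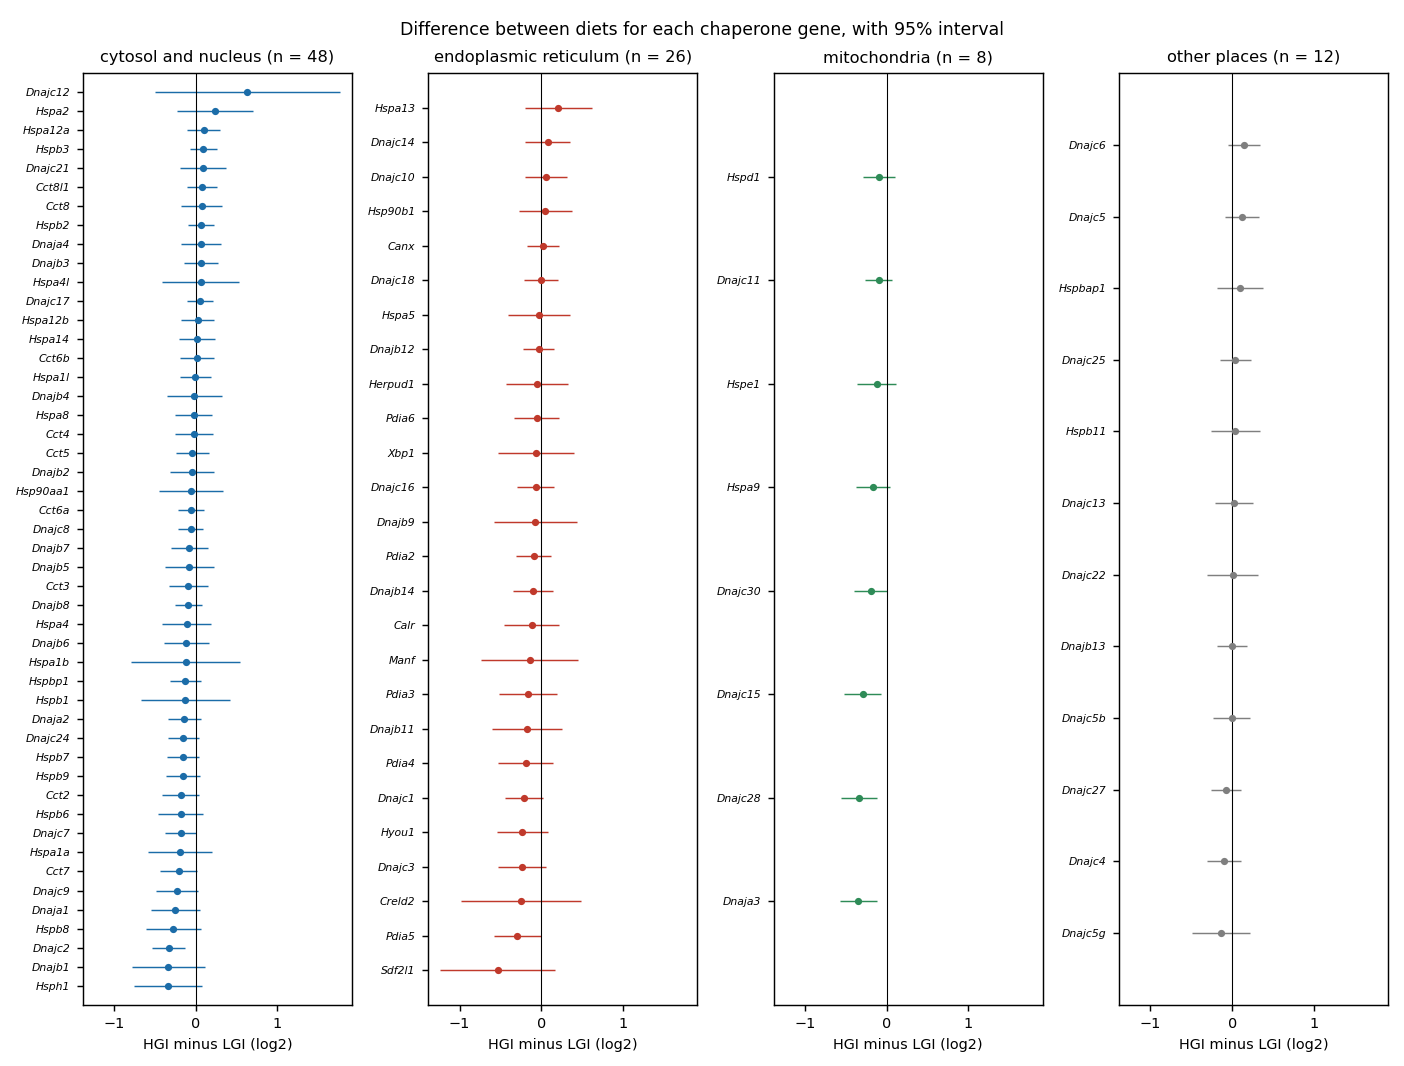
Difference between the diets (HGI minus LGI, log2, x axis) for each of the 94 chaperone genes (y axis), grouped by place in the cell, with points for the fitted difference and bars for its 95% interval. All 8 mitochondrial points lie below 0, and the widest interval is that of Dnajc12, whose point stands at 0.63.

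Among the ER genes the differences between the diets were small beside the spread between mice: for 24 of 26 the difference was below the SD within a diet. The median difference over the 26 ER genes was -0.08 log2, against -0.02 for all probe sets and -0.04 for those with a mean of at least 6, and 20 of the 26 were below 0. Without LGI 4 the median was -0.01 and 13 of 26 were below 0. In that mouse 16 of the 26 ER genes had their highest level of the 10 mice, and the median ER gene stood 0.42 log2 above the mean of the other 4 LGI mice. The same median was -0.02 for the 48 cytosolic genes, 0.03 for the 8 mitochondrial genes and -0.01 for all probe sets with a mean of at least 6. At the other end, HGI 3 was the lowest of the 10 mice in 11 of the 26 ER genes. Of all probe sets LGI 4 was the highest mouse in 12.9% and HGI 3 the lowest in 7.48%, and of those with a mean of at least 6 log2 in 19.4% and 5.18%.

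Hspa5, the HSP70 of the ER known as BiP, meets new proteins as they enter the ER and binds the sensors of the unfolded protein response at rest. Its level was 12.48, 12.21, 11.66, 12.29 and 12.66 log2 in HGI 1 to HGI 5 and 12.30, 12.22, 12.23, 12.72 and 11.96 in LGI 1 to LGI 5. LGI 4 was the highest and HGI 3 the lowest mouse, and the diets overlapped widely. The difference was -0.03 ± 0.17 log2 (SE, n = 5 per diet, adjusted p = 0.987), with a 95% interval from -0.40 to 0.35.

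The promoter of Hspa5 carries the ER stress response element (ERSE), the site through which ATF6 and XBP1 act. It is shown because 7 of the 9 genes that hold this element or its shorter form were highest in LGI 4. The RefSeq start-site window of assembly GRCm38.p6 gives the 250 bases before the start site on the + strand of chr2:34771840-34772089, printed 5′ to 3′ with the element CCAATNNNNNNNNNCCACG in capitals.
Hspa5: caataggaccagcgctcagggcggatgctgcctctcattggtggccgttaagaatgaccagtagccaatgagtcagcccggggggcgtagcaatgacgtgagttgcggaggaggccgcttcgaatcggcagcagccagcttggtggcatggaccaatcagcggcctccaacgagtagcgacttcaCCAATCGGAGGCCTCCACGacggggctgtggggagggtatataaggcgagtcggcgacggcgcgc

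Windows from 250 bases before to 50 after the start site were held by RefSeq for 78 of the 94 chaperone genes. On either strand, the ERSE letters were found in 7 of the 78 (8.97%), against 0.137% of 27025 genes, and all 7 are ER genes. The shorter ERSE-II, ATTGGNCCACG, was found in 2 (Dnajb11 and Herpud1), against 0.0444% of genes, and in no gene that also held an ERSE. Both elements are built from a CCAAT box, which reads ATTGG on the opposite strand, and CCACG. The matches are descriptions of these letters and not sites shown to be bound. ER chaperone genes, on which the unfolded protein response acts through such elements, were picked here by name, so the shares are no test. The stretches below have 20 bases on each side of the element, run 5′ to 3′ on the strand of the gene, and show how little the elements share beyond the fixed letters, which are within the capitals; where the element lies on the opposite strand, the capitals read CGTGG first.
Calr (chr8:84847055-84847113, - strand): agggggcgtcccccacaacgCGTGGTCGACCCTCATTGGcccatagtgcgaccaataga
Canx (chr11:50325780-50325838, - strand): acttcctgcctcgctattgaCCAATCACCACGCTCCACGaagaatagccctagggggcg
Creld2 (chr15:88819500-88819558, + strand): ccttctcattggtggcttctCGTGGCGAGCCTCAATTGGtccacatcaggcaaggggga
Dnajc3 (chr14:118937807-118937865, + strand): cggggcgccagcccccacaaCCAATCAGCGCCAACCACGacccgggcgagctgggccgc
Hsp90b1, distal element (chr10:86705618-86705676, - strand): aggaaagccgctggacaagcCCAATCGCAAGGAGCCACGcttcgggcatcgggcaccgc
Hsp90b1, proximal element (chr10:86705513-86705571, - strand): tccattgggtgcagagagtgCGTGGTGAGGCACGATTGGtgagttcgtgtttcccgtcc
Pdia6 (chr12:17266471-17266529, + strand): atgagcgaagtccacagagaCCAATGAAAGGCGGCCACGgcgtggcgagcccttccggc
Herpud1, ERSE-II (chr8:94386357-94386407, + strand): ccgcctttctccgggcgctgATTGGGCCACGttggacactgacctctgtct

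Counted from the start site, the element nearest to it ends at position -47 in Hspa5, the closest of the 7 genes, and at -144 in Calr, the farthest. Of the 9 genes with an ERSE or ERSE-II, 7 were highest of the 10 mice in LGI 4 and 5 were lowest in HGI 3. Of the 13 other ER genes with a window, 6 were highest in LGI 4 and 3 lowest in HGI 3. Canx and Herpud1 were the 2 element holders that were not highest in LGI 4.

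Calr, the lectin chaperone calreticulin that holds glycoproteins in the ER lumen, had levels of 12.37, 12.28, 11.78, 12.06 and 12.56 log2 in HGI 1 to HGI 5 and 12.20, 12.22, 12.23, 12.84 and 12.15 in LGI 1 to LGI 5. The order of the mice was close to that of Hspa5, with LGI 4 highest and HGI 3 lowest. Its difference was -0.12 ± 0.16 log2 (SE, n = 5 per diet, adjusted p = 0.922). Across the 10 mice the levels of Hspa5 and Calr were correlated (Pearson r = 0.91, permutation p = 0.00058, 0.0029 after adjustment over the 5 pairs computed, and Spearman rho = 0.73, permutation p = 0.0209, adjusted 0.0383). Without HGI 3 and LGI 4, the mice farthest from the median of Hspa5, r was 0.78, and with the diet means subtracted it was 0.92.

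Hsp90b1, the HSP90 of the ER (GRP94), followed Hspa5 less closely (r = 0.72, permutation p adjusted over the 5 pairs = 0.0211; rho = 0.65, adjusted p = 0.0627; r = 0.62 without HGI 3 and LGI 4). It stood at 11.99 log2 in LGI 4 and between 11.15 and 11.34 in the other 4 LGI mice, while the HGI mice lay between 11.25 and 11.71. Canx, the membrane-bound sister of Calr, did not take part in this spread. Its 10 values lay within 0.42 log2, between 10.90 in HGI 1 and 11.32 in HGI 5, and LGI 4 stood at 11.14 inside its own group.

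**Figure D2:**
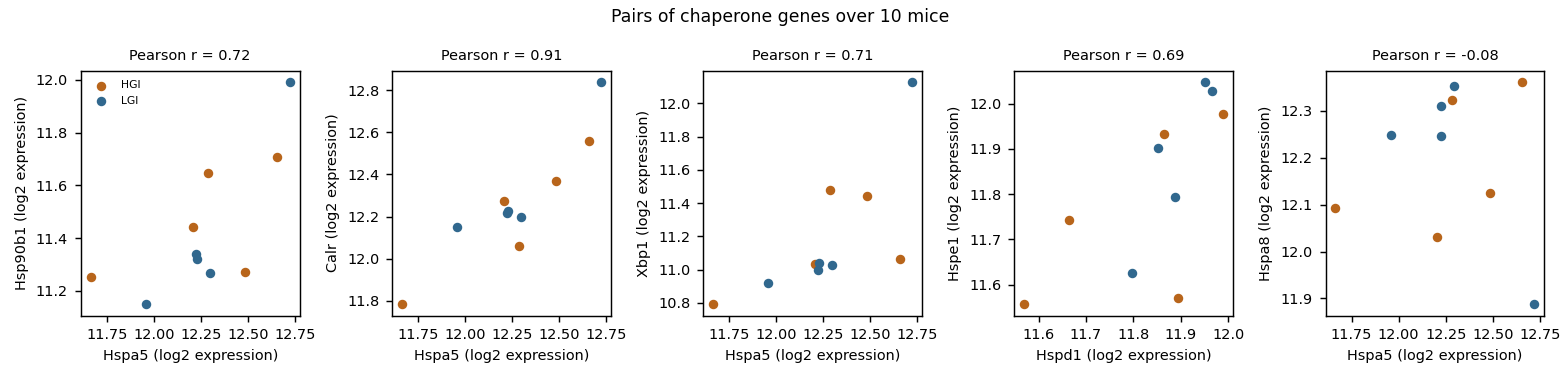
Level of 1 chaperone gene against another in each of the 10 mice, both axes in log2, with the diets coloured and Pearson's r above each panel. Hspa5 and Calr line up along the whole range (r = 0.91), while Hspa5 and the cytosolic Hspa8 do not (r = -0.08).

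Of the ER genes, Sdf2l1 and Creld2 had the widest ranges over the 10 mice, at 2.31 and 2.26 log2. Creld2, a secreted ER protein induced by ER stress, had levels of 8.67, 8.52, 8.14, 8.65 and 9.46 log2 in HGI 1 to HGI 5 and 8.81, 8.57, 8.58, 10.40 and 8.32 in LGI 1 to LGI 5. LGI 4 stood 3.55-fold above the mean of the other 4 LGI mice, and HGI 5 was the next highest mouse. The difference between the diets was -0.25 ± 0.34 log2 (SE, n = 5 per diet, adjusted p = 0.924), and without LGI 4 it was 0.12.

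Sdf2l1, a partner of the J protein Dnajb11 in the ER lumen, had the largest negative difference of the 94 genes at -0.53 ± 0.33 log2 (SE, n = 5 per diet, adjusted p = 0.765). Its levels were 6.49, 7.11, 5.87, 6.18 and 6.90 in HGI 1 to HGI 5 and 7.41, 6.43, 6.84, 8.18 and 6.35 in LGI 1 to LGI 5. The diets overlapped, with 2 LGI mice below the HGI mean, and without LGI 4 the difference was -0.25. Manf, a small ER protein that is secreted under stress, ran from 9.69 in HGI 3 to 11.43 in LGI 4, with HGI 5 at 11.11. Dnajb11, the J protein that hands clients to Hspa5, ran from 8.80 in HGI 3 to 10.18 in LGI 4, against 9.14 to 9.31 in the other LGI mice.

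Xbp1 encodes the transcription factor that drives much of the ER chaperone programme once its mRNA has been spliced by Ern1 (IRE1); the arrays measured the level of its mRNA and not its splicing. The levels were 11.44, 11.03, 10.79, 11.48 and 11.07 log2 in HGI 1 to HGI 5 and 11.03, 11.00, 11.04, 12.13 and 10.92 in LGI 1 to LGI 5. LGI 4 was 2.19-fold above the mean of the other 4 LGI mice, which lay within a narrow band, and it was the highest mouse at each of the 4 Xbp1 probe sets. The difference was -0.06 ± 0.21 log2 (SE, n = 5 per diet, adjusted p = 0.975). The correlation of Xbp1 with Hspa5 (r = 0.71, permutation p adjusted over the 5 pairs = 0.0198; rho = 0.83, adjusted p = 0.0197) had an r of 0.41 without HGI 3 and LGI 4, so that Pearson's value rests in good part on those mice.

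Not every gene of the response was high in LGI 4. Herpud1, a membrane protein that helps to pull misfolded proteins out of the ER for destruction, had levels of 10.40, 11.34, 11.09, 11.19 and 11.20 log2 in HGI 1 to HGI 5 and 11.47, 11.21, 11.12, 10.66 and 11.01 in LGI 1 to LGI 5. Its lowest mice were HGI 1 and LGI 4. Dnajb9, an ER J protein that restrains Ern1, was lowest in HGI 3 (9.08) and highest in LGI 1 (10.60), with LGI 4 at 10.25. Hspa13, a microsomal HSP70 relative, was highest in HGI 5 (9.06) and HGI 4 (9.03), and its difference of 0.21 ± 0.19 log2 (SE, n = 5 per diet, adjusted p = 0.868) was the most positive of the ER genes.

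The disulfide isomerases, which make and shuffle the disulfide bonds of secreted proteins, were all below 0 in the 5 measured, at the probe sets used. Of the 5, Pdia2 was dim (mean 3.11 log2, difference -0.09). Pdia5 stood at 9.98, 9.85, 10.14, 9.66 and 9.93 log2 in HGI 1 to HGI 5 and at 9.91, 10.15, 10.07, 10.66 and 10.23 in LGI 1 to LGI 5. The groups overlapped, and its difference was -0.29 ± 0.13 log2 (SE, n = 5 per diet, unadjusted p = 0.0464, adjusted p = 0.655), or -0.18 without LGI 4. Pdia3, which works with Calr and Canx on glycoproteins, stood at -0.16, Pdia4 at -0.19 and Pdia6 at -0.06, with adjusted p-values from 0.845 to 0.962. Hyou1, the exchange factor of Hspa5, and Dnajc3, a J protein of the lumen, both stood at -0.23 with adjusted p-values of 0.769 and 0.752.

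Without LGI 4, differences of further ER genes moved by more than 1.5 times beside those of Creld2, Sdf2l1 and Pdia5 given above. Hsp90b1 stood at 0.20 (0.05 with all mice), Xbp1 at 0.17, Hspa5 at 0.08, Manf at 0.06 (-0.14 with all mice), Pdia6 at 0.04, Dnajb11 at 0.02 (-0.17 with all mice) and Calr at 0.01. Dnajb9 stood at -0.03 (-0.07 with all mice), Pdia3 at -0.05, Hyou1 at -0.10, Pdia4 at -0.11, Dnajc3 at -0.15 and Herpud1 at -0.16 (-0.05 with all mice). Without HGI 1, Herpud1 stood at 0.11, Hsp90b1 at 0.10, Canx at 0.09 (0.02 with all mice), Pdia6 at -0.02, Hspa5 at -0.08, Pdia4 at -0.09, Pdia3 at -0.10, Dnajb9 at -0.11 and Xbp1 at -0.13. None of these genes was called with or without either mouse.

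**Figure D3:**
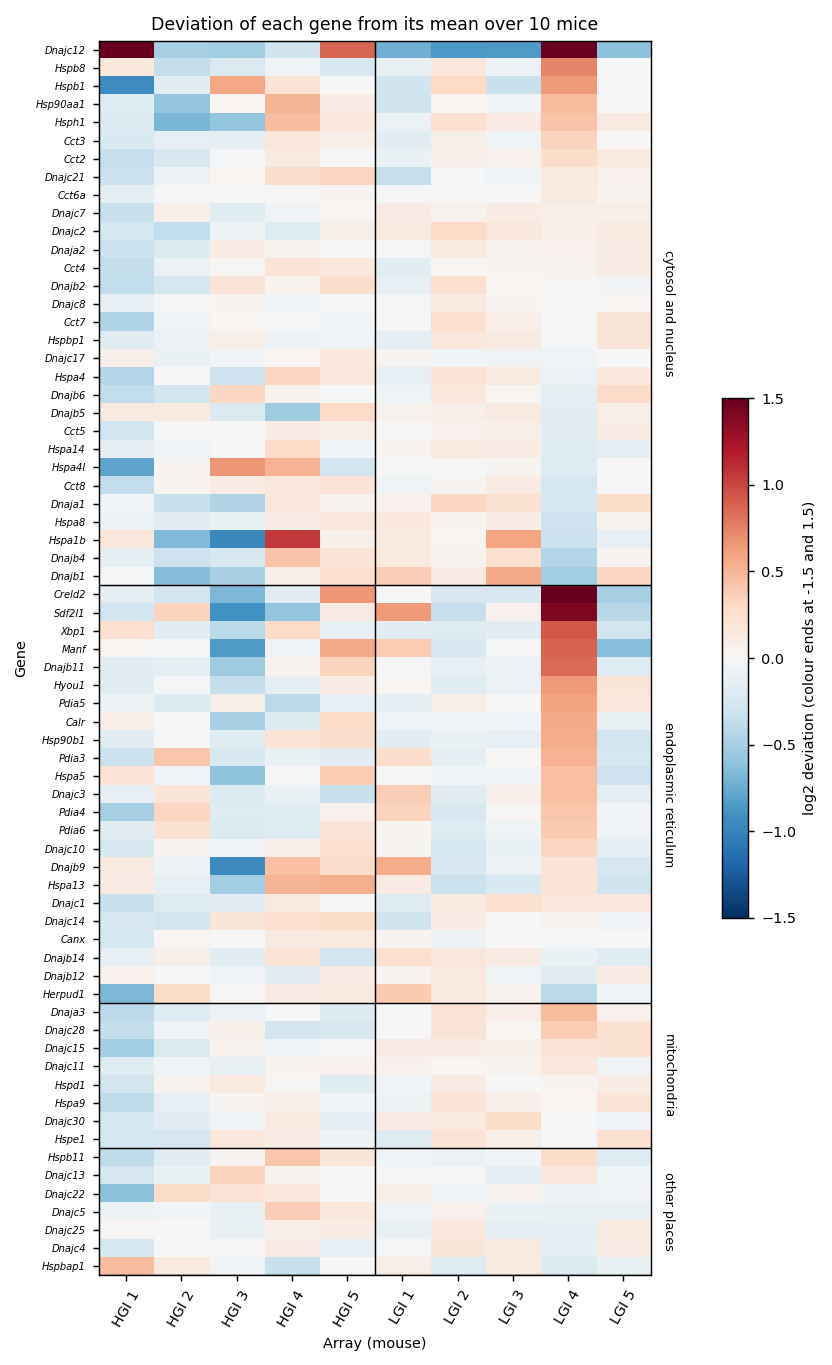
Deviation of each of the 68 chaperone genes with a mean of at least 6 log2 (rows, by place in the cell and ordered by the deviation in LGI 4) from its own mean over the 10 mice (columns) in log2, with the colour scale cut at both ends. The ER block is mostly red in LGI 4, where 15 of its 23 rows have their highest value, and the mitochondrial block is blue in HGI 1, the lowest mouse in all 8 rows.

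Other measures moved with LGI 4 as well. Of the neutrophil list, 6 of 7 markers were measured, and their mean level was 6.10 log2 in LGI 4, against 4.33 to 4.57 in the other LGI mice and 4.17 to 5.08 in the HGI mice. S100a8 stood at 8.92 in LGI 4 and at 3.95 to 4.28 in the other LGI mice. The median deviation of the 6 markers from their own mean over 10 mice was 0.41 log2 in LGI 4. It was 0.32 in HGI 5 and 0.20 in HGI 1, so the mean level in LGI 4 rested on some of the markers more than on others. The mean of the 11 Kupffer cell and macrophage markers was 7.87 in LGI 4 (7.13 to 7.62 in the other LGI mice) and 8.24 in HGI 5 (7.42 to 7.64 in the other HGI mice), the other mouse with high ER genes. The mean of the hepatocyte markers was the lowest of the 10 in LGI 4, at 13.40. Antibody-making plasma cells are rich in ER chaperones. Of the B and plasma cell list, 7 of 8 markers were measured and 2 lay below the array median on every array, and the mean was 4.94 in LGI 4 within an LGI range of 4.76 to 4.95 and an HGI range of 4.67 to 5.28. The 3' minus 5' difference of the Actb control probe sets, a sign of RNA quality, was the highest of the 10 mice in LGI 4 (2.27 log2), and that of Gapdh was highest in HGI 5 (0.99) and next in LGI 4 (0.87). The part of these measures in the ER pattern was not tested.

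The partners of these chaperones gave no call either. In a list of 46 further genes of ER folding, the unfolded protein response and ER-associated degradation, all measured, 0 passed the threshold, and at an unadjusted p under 0.05 there were 2 higher and 3 lower in HGI. The median was -0.03, with 28 of the 46 below 0, against -0.02 and 55.8% for all probe sets. At that unadjusted p 2.76% of all probe sets were higher and 4.78% lower. Of those with a mean of at least 6 log2, 13.2% passed it in either direction. Derl2, part of the channel for misfolded proteins, stood at 0.43 ± 0.12 log2 (SE, n = 5 per diet, adjusted p = 0.321). Ddit3, the transcription factor CHOP of prolonged ER stress, stood at -0.27 (adjusted p = 0.417), and Erp27, a non-catalytic relative of the isomerases with a dim signal, at -0.37 (adjusted p = 0.50). The sensors Ern1 and Atf6 stood at 8.55 and 7.35 log2 in LGI 4, where Ern1 was the lowest of the 10 mice and Atf6 the second lowest. The list as a whole ran the other way, with a median deviation from the mean over 10 mice of 0.15 in LGI 4. For all probe sets with a mean of at least 6 log2 that median was 0.01.

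**Figure D4:**
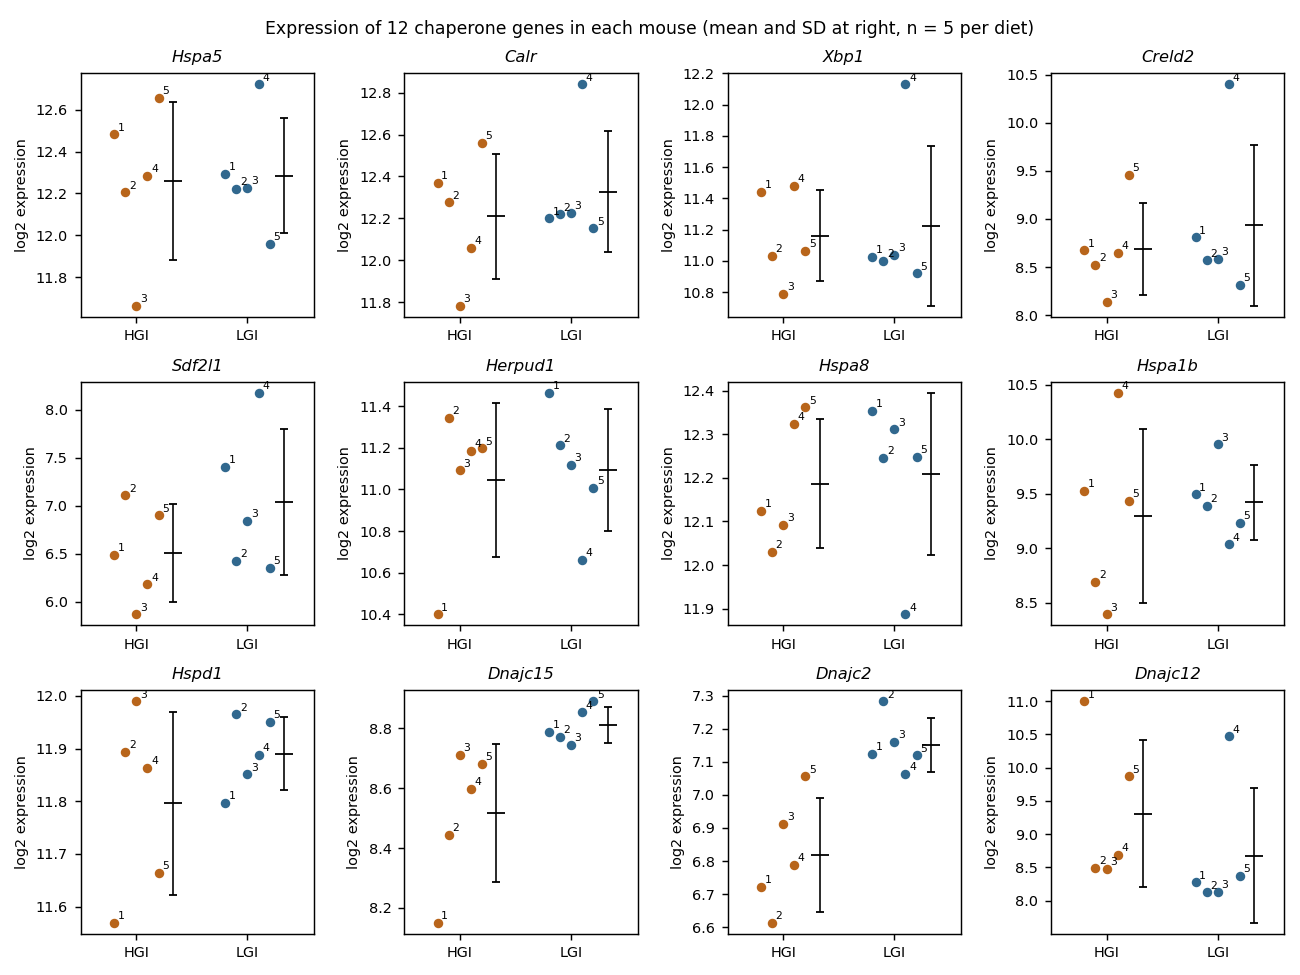
Level in log2 (y axis) of 12 chaperone genes in each mouse, numbered within its diet (x axis), with the mean and SD of 5 mice beside each diet. LGI 4 is the top point of Hspa5, Calr, Xbp1, Creld2 and Sdf2l1, and the diets separate without overlap for Dnajc15 and Dnajc2.

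In the cytosol and nucleus the median difference over 48 genes was -0.07 log2, with 33 below 0, 0 past the threshold and 1 at an unadjusted p under 0.05. Without HGI 1 the median was -0.02, with 30 below 0. Dnajc2, which with an HSP70 partner greets proteins leaving the ribosome in human cells, had levels of 6.72, 6.61, 6.91, 6.79 and 7.06 log2 in HGI 1 to HGI 5 and 7.12, 7.28, 7.16, 7.06 and 7.12 in LGI 1 to LGI 5. Every LGI mouse was above every HGI mouse, although HGI 5 and LGI 4 came within rounding of each other. The groups did not overlap for 2 of the 94 chaperone genes, Dnajc2 and Dnajc15, against 1.67% of all probe sets, 1.2% in the lower direction, and 2.47% in the lower direction among probe sets with a mean of at least 6. The difference of Dnajc2 was -0.33 ± 0.09 log2 (SE, n = 5 per diet, unadjusted p = 0.00321, adjusted p = 0.346), or 1.26-fold lower in HGI.

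Dnajc12, a J protein that in human cells attends the aromatic amino acid hydroxylases such as phenylalanine hydroxylase, was the most variable of the 94 genes. Its levels were 11.00, 8.49, 8.48, 8.69 and 9.87 log2 in HGI 1 to HGI 5 and 8.27, 8.13, 8.14, 10.47 and 8.38 in LGI 1 to LGI 5. HGI 1, LGI 4 and HGI 5 stood high and the other 7 mice lay within a narrow band, a range of 7.31-fold in all. The difference was 0.63 ± 0.53 log2 (SE, n = 5 per diet, adjusted p = 0.849), and it was 0.21 without HGI 1 and 1.08 without LGI 4. The neutrophil marker mean was also highest in these 3 mice, at 5.07 in HGI 1, 5.08 in HGI 5 and 6.10 in LGI 4, against 4.17 to 4.78 in the other 7, and its part in the result was not tested. The median deviation of those markers was 0.20, 0.32 and 0.41 log2 in these 3 mice and -0.44 to -0.003 in the other 7.

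The heat shock genes of the cytosol did not share 1 highest mouse: it was HGI 4 for Hspa1b, Hsp90aa1 and Hsph1, HGI 1 for Hspa1a, LGI 3 for Dnajb1, and LGI 4 for Hspb1 and Hspb8. Hspa1b, an inducible HSP70, had levels of 9.53, 8.69, 8.40, 10.42 and 9.44 log2 in HGI 1 to HGI 5 and 9.50, 9.39, 9.95, 9.04 and 9.23 in LGI 1 to LGI 5. HGI 4 was 2.66-fold above the mean of the other HGI mice, and HGI 3 was the lowest of the 10. The difference was -0.13 ± 0.31 log2 (SE, n = 5 per diet, adjusted p = 0.964). Hspa1a is a near-identical copy, so signal cannot be assigned with certainty to 1 of them, and its own probe set was dim (mean 4.17 log2, difference -0.19, adjusted p = 0.877).

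HGI 4 was also the highest of the 10 mice for Hsp90aa1, the inducible HSP90 of the cytosol, at 11.34 log2, with LGI 4 next at 11.31, and for the HSP110 gene Hsph1 at 9.54, with LGI 4 at 9.50. The lowest mouse for both was HGI 2, at 10.25 and 8.38. Hsph1 had a difference of -0.34 ± 0.19 log2 (SE, n = 5 per diet, adjusted p = 0.748) and Dnajb1, the J protein that pairs with inducible HSP70, one of -0.34 ± 0.21 (SE, n = 5 per diet, adjusted p = 0.766). Hsp90aa1 stood at -0.06. Dnajb1 was higher in LGI 3 (9.17), LGI 1 (8.97) and LGI 5 (8.92) than in any HGI mouse, whose top value was 8.85, but LGI 4 lay at 8.09.

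Hspa8, the constitutive HSP70 of the cytosol, differed by -0.02 ± 0.10 log2 (SE, n = 5 per diet, adjusted p = 0.982) at its brightest probe set, with a 95% interval from -0.25 to 0.20. Its levels there were 12.13, 12.03, 12.09, 12.32 and 12.36 in HGI 1 to HGI 5 and 12.35, 12.25, 12.31, 11.89 and 12.25 in LGI 1 to LGI 5. LGI 4 was the lowest mouse at this probe set and, at 11.78, the highest LGI mouse at another, so the probe sets of Hspa8 disagree about that mouse. At one more probe set, HGI 4 stood at 10.57 and the other 9 mice between 9.26 and 9.90. The correlation of Hspa8 with Hspa5 was r = -0.08 (permutation p adjusted over the 5 pairs = 0.846; rho = 0.20, adjusted p = 0.583).

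The CCT chaperonin, the ring that folds actin and tubulin, had a median of -0.04 log2 over 9 genes, with 6 below 0. Cct7 had the largest difference at -0.21 ± 0.10 log2 (SE, n = 5 per diet, adjusted p = 0.687), Cct2 stood at -0.18 (adjusted p = 0.746), Cct3 at -0.09 and Cct8 at 0.07 (adjusted p = 0.942). The lowest mouse of Cct8 was HGI 1 at 10.19, against 10.61 to 10.77 in the other HGI mice. Of the small heat shock proteins, which hold unfolded proteins without ATP, Hspb1 ranged from 6.59 in HGI 1 to 8.17 in LGI 4 with a difference of -0.13 (adjusted p = 0.954). Hspb8, the partner of Bag3 in clearing aggregates, stood at -0.27 ± 0.15 (SE, n = 5 per diet, adjusted p = 0.741) and was highest in LGI 4 at 10.27. Dnaja1, a farnesylated J protein of the cytosol, stood at -0.25 (adjusted p = 0.738).

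Of the cytosolic genes just described, Cct8 stood at 0.17, Hspb1 at 0.09, Hspa8 at -0.01, Hsp90aa1 at -0.02, Cct3 at -0.04, Cct2 and Cct7 at -0.12 and Hspa1a at -0.31 without HGI 1. Without LGI 4, Hsp90aa1 stood at 0.06, Hspb1 at 0.02, Cct8 at 0.01, Cct3 at -0.02, Hspa8 at -0.10, Hspb8 at -0.12, Hspa1b at -0.22 and Dnajb1 at -0.51. None of these genes was called with or without either mouse.

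Of 35 cytosolic heat shock factors and cochaperones listed beside these, 32 were measured, 26 were below 0 and the median was -0.11 log2. None passed the threshold, and 3 were lower at an unadjusted p under 0.05. Of all probe sets with a mean of at least 6 log2, 60% were below 0 and 9.25% were lower at that p. Bag3, a cochaperone that joins HSP70 to the small heat shock proteins, stood at -0.40 ± 0.17 log2 (SE, n = 5 per diet, adjusted p = 0.620). The others were Cdc37l1 at -0.22 and Bag2 at -0.24, with adjusted p-values of 0.589 and 0.617, and Bag2 was dim. In HGI 1 the median deviation of this list from the mean over 10 mice was -0.34, against -0.26 for all probe sets with a mean of at least 6.

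**Figure D5:**
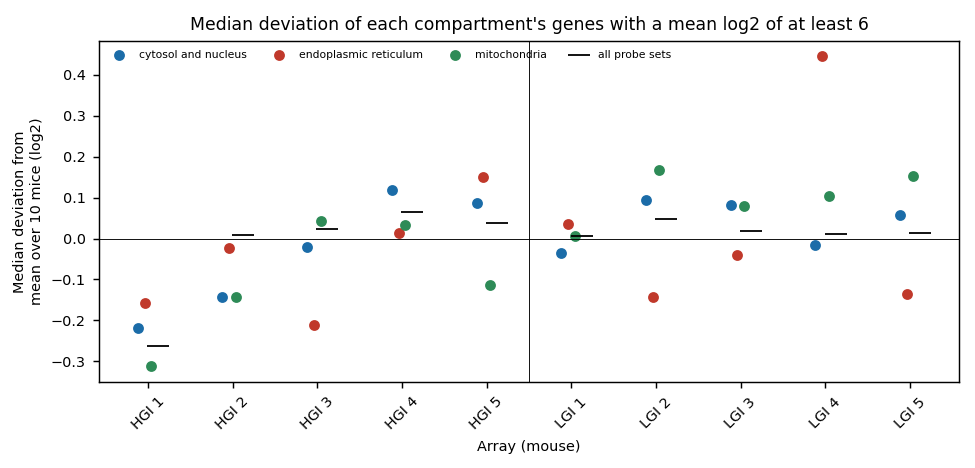
Median deviation of the genes of each place in the cell, with a mean of at least 6 log2, from their own mean over the 10 mice (y axis, log2) on each array (x axis), beside the same for all probe sets as bright (black dashes). The ER point of LGI 4 stands at 0.45, the mitochondrial point of HGI 1 at -0.31, where all probe sets stand at -0.26.

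The mitochondrial chaperones were the group that leaned most to 1 side. All 8 measured genes were below 0, with a median of -0.18 log2, and 3 of the 8 (37.5%) had an unadjusted p under 0.05, against 13.2% of all probe sets with a mean of at least 6, but none passed the threshold. At these probe sets the direction was the same for all 8 under each of the 20 alternative settings. Several of these, among them the filters, the replicate block and the unmoderated test, leave a difference as it is and could not change its sign. Of 11 other probe sets of the genes 8 were below 0, and 3 with a mean under 6 log2 were above it, 1 each of Dnaja3 (0.06), Dnajc11 (0.03) and Hspa9 (0.04). HGI 1 was the lowest of the 10 mice in all 8 genes, and this mouse was low in bright probe sets as a whole, as described above. Without it the median was -0.13, while that of all probe sets with a mean of at least 6 was 0.02. After a further quantile normalization, which gives every array the same spread, the medians were -0.13 and -0.01.

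Dnaja3, the J protein of the mitochondrial matrix known as Tid1, had levels of 9.03, 9.23, 9.34, 9.43 and 9.23 log2 in HGI 1 to HGI 5 and 9.43, 9.65, 9.53, 9.90 and 9.49 in LGI 1 to LGI 5. Only HGI 4 reached the lowest LGI mouse, with which it tied to 2 decimals. The difference was -0.35 ± 0.11 log2 (SE, n = 5 per diet, unadjusted p = 0.00576, adjusted p = 0.420), or 1.27-fold lower in HGI, and it lay between -0.39 and -0.27 with each array left out in turn.

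Dnajc15, an inner membrane J protein that in mice holds back respiratory complex I, had levels of 8.15, 8.44, 8.71, 8.60 and 8.68 log2 in HGI 1 to HGI 5 and 8.79, 8.77, 8.75, 8.85 and 8.89 in LGI 1 to LGI 5. The diets did not overlap, and the HGI mice spread over a wider range (SD 0.23, against 0.06 in LGI). The difference was -0.29 ± 0.10 log2 (SE, n = 5 per diet, unadjusted p = 0.0151, adjusted p = 0.520), and -0.20 without HGI 1. Dnajc28 stood at -0.34 ± 0.10 (SE, n = 5 per diet, unadjusted p = 0.00597, adjusted p = 0.428), with HGI mice from 6.10 to 6.53 and LGI mice from 6.46 to 6.84. Dnajc30, which in mice is found with the ATP synthase, stood at -0.20 and Dnajc11, of the cristae-shaping complex, at -0.10, with adjusted p-values of 0.677 and 0.838. Dnajc11 stood at -0.07 without HGI 1.

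Hspd1 and Hspe1, the barrel (HSP60) and the lid (HSP10) of the mitochondrial chaperonin, lie head to head on chromosome 1 and are read in opposite directions from a shared stretch of promoter. In the RefSeq windows of GRCm38.p6, Hspe1 starts at 55088148 on the + strand and Hspd1 at 55087932 on the - strand, with another start at 55088243. The stretch between the starts at 55087932 and 55088148 holds the heat shock element letters GAANNTTCNNGAA, found on either strand in 4 of the 78 chaperone genes with a window (5.13%; Dnajb6, Hspd1, Hspe1 and Hsph1), against 0.662% of 27025 genes. The letters match on both strands there, in overlapping places. Heat shock genes were picked by name as well, so these shares are no test either. The stretch is shown 5′ to 3′ on the + strand, with the + strand match in capitals, because both genes share it.
Hspe1 and Hspd1 (chr1:55088044-55088096, + strand): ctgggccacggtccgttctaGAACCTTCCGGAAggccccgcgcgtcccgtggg

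The level of Hspd1 was 11.57, 11.89, 11.99, 11.86 and 11.66 log2 in HGI 1 to HGI 5 and 11.80, 11.96, 11.85, 11.89 and 11.95 in LGI 1 to LGI 5. That of Hspe1 was 11.56, 11.57, 11.98, 11.93 and 11.74 in the HGI mice and 11.63, 12.03, 11.90, 11.79 and 12.05 in the LGI mice. The diets overlapped for both, HGI 1 was the lowest mouse for both, and HGI 3 was the highest HGI mouse for both. Their differences were -0.09 ± 0.09 and -0.12 ± 0.11 log2 (SE, n = 5 per diet, adjusted p = 0.884 and 0.869), and -0.04 and -0.07 without HGI 1. Across the 10 mice they were correlated (r = 0.69, permutation p adjusted over the 5 pairs = 0.0371; rho = 0.72, adjusted p = 0.0383), with r = 0.65 without HGI 1 and HGI 5. With the diet means subtracted r was 0.65 and its adjusted p 0.0560, which misses the threshold, and without HGI 1 and HGI 3 that r was 0.41, so it rests in good part on those mice. A second, dimmer probe set of Hspe1 stood at -0.42 (unadjusted p = 0.0172, adjusted p = 0.533).

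Hspa9, the mitochondrial HSP70 (mortalin) that pulls proteins in through the import channel, stood at -0.17 ± 0.10 log2 (SE, n = 5 per diet, adjusted p = 0.752), with HGI mice from 9.54 to 9.99 and LGI mice from 9.83 to 10.11. Without HGI 1 it stood at -0.10. Of 20 further genes of mitochondrial folding, import and proteolysis, 19 were measured, 17 were below 0 and the median was -0.17 log2. None passed the threshold, and 5 were lower at an unadjusted p under 0.05, beside the same shares of 60% and 9.25% over all probe sets as bright. Clpb, a disaggregase of the mitochondrion, had the largest of these at -0.31 ± 0.10 log2 (SE, n = 5 per diet, adjusted p = 0.436). Grpel1, the exchange factor of Hspa9, stood at -0.26 (adjusted p = 0.514) and Spg7, a subunit of an inner membrane protease, at -0.25 (adjusted p = 0.533). In HGI 1 the median deviation of this list was -0.38.

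Over the 12 chaperone genes of other places the median was 0.01 log2, with 4 below 0, and the smallest adjusted p was 0.782. Dnajc5, the cysteine string protein of vesicles, stood at 0.12 (adjusted p = 0.843), Hspbap1, a binding partner of Hspb1, at 0.10 and Dnajc4 at -0.10. Dnajc13, of endosomes, stood at 0.02 and Dnajc22 at 0.01, but Dnajc22 lay at 8.45 in HGI 1 and between 8.99 and 9.34 in the other 9 mice. Without HGI 1, Dnajc22 stood at 0.16, Dnajc13 at 0.08, Hspbap1 at -0.01 and Dnajc4 at -0.05, and without LGI 4, Dnajc13 and Hspbap1 at 0.06, Dnajc22 at -0.01 and Dnajc4 at -0.15. Of all 226 probe sets of the 94 chaperone genes 0 passed the threshold (smallest adjusted p 0.291, for Dnajc1) and 15 (6.64%) had an unadjusted p under 0.05, all of them lower in HGI. Over all probe sets tested 7.54% had such a p, 4.78% lower and 2.76% higher. Among those with a mean of at least 6 log2 it was 13.2%, with 9.25% lower. Of the 132 chaperone probe sets not used, 81 had the sign of the one used and 51 the opposite sign. The opposite sign held for the only other probe set of Hsp90b1, of Pdia4 and of Dnajc13, and for all others of Hspbap1 (3) and Dnajc10 (2). For Dnajc2, 2 of 3 others had the same sign. Other probe sets of Cct3, Dnaja1 and Pdia6 were lower in HGI at unadjusted limma p-values of 0.00865, 0.0123 and 0.0117.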

How the data were processed

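Affymetrix arrays were run on the livers of 10 QSi5 mice in lactation. Total RNA was purified with an RNeasy kit and given a biotin label in one cycle, per the labels' protocols. The table the authors deposited holds expression on the log2 scale, 1 value for each probe set and array. The submitters' processing notes name RMA and R 2.6.1. RMA brings the arrays toward a shared distribution, so a shift of all genes on 1 array is in part removed. The deposited values still differed in spread, with an SD from 2.16 log2 in HGI 1 to 2.31 in HGI 4. Array values carry no genome coordinates.

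Of 45101 probe sets, 64 controls were left out and 45037 were tested, of which 34945 had 1 gene symbol in the platform annotation. HGI was compared with LGI by limma 3.58.1 in R 4.3.3 (lmFit, eBayes), with Benjamini-Hochberg adjustment of the p-values across the 45037 probe sets. Adjusted p-values of single genes come from limma, differences are HGI minus LGI, and the threshold was 0.05. The fit was also run on simulated data with independent noise in every value. Those data hold no shift shared by the genes of 1 array, so they do not show how the fit fares on arrays such as HGI 1. Places in the cell were assigned by hand, and Hsp90ab1 and Dnajc19 had no probe set with 1 symbol and were not analysed here. Correlations used 100000 permutations, two-sided, and the pairs were those of Hspa5 with Hsp90b1, Calr, Xbp1 and Hspa8, and Hspd1 with Hspe1. The number of arrays, 5 per diet, limits the precision.

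The members and lists were chosen with earlier results of these data known. Named genes were those past the threshold, the 3 most positive and 3 most negative differences of each place among genes with a mean of at least 6 log2, a set fixed by role, and the 3 smallest p-values of each partner list. Cct7, Dnajc30, Hspb8, Ern1, Atf6, Atf6b, Creb3l3, Eif2ak3, Pdia2 and the single marker genes were added after their values were seen. Alternatives were filters on dim probe sets, array weights, median centring, quantile normalization again, a robust fit with a variance trend, 1 probe set per gene, other probe sets of a gene, a replicate block, an unmoderated test and leaving out arrays. Promoter windows came from RefSeq (GRCm38.p6).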

Additional observations from a re-analysis of the deposited data

Results flagged for a closer look

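A single mouse stood apart from the other 4 of its diet, by a gap above Dixon's 95% critical value of 0.71 times the range of the 5, for 9 of the named chaperone genes. LGI 4 stood highest for Xbp1 (12.13 log2), Calr (12.84), Hsp90b1 (11.99), Creld2 (10.40) and Dnajb11 (10.18), all ER genes, and for the cytosolic Dnajc12 (10.47). LGI 4 stood lowest for Hspa8 (11.89), although another bright probe set of this gene placed the same mouse highest of its diet, at 11.78. HGI 1 stood lowest for Herpud1 (10.40) and for the chaperonin subunit Cct8 (10.19). Over all 94 genes and both diets 19 of 188 groups of 5 passed the critical value, 11 of them by LGI 4 and 5 by HGI 1, where chance gives about 1 in 20. That is 10.1% of the groups, against 7.47% over all probe sets and 9.13% over those with a mean of at least 6 log2, where LGI 4 accounted for 913 and HGI 1 for 660 of 2095.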

How the results depend on the processing

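No chaperone gene passed the threshold under any of the 20 alternative settings. The count over all probe sets, 29 (17 higher and 12 lower in HGI), became 64 with array weights, 63 after quantile normalization again, 17 (13 higher, 4 lower) with median centring, 1 with the unmoderated test, 58 without HGI 1 and LGI 4, and 5 to 49 with each array left out in turn. With 1 probe set per gene it was 30, of which 12 were higher. Chaperone genes at an unadjusted p under 0.05, 5 as reported, numbered 11 without HGI 1 and LGI 4 and 5 to 11 with each array left out (11 without HGI 4, 9 without LGI 4). Of all 45037 probe sets 3397 had such a p as reported and 4269 without HGI 1 and LGI 4. Without HGI 4 it was 3429 and without LGI 4 it was 3451. Samples that share a replicate number were not pairs (correlations of their deviations from -0.05 to 0.07, none best matched by its own number). The fit with the replicate block gave 33 probe sets, 0 chaperone genes past the threshold and 7 at an unadjusted p under 0.05. Of all 45037 probe sets 3441 had such a p in that fit. The correlation of Hspd1 and Hspe1 was weaker with the diet means subtracted (r = 0.65, adjusted permutation p = 0.0560).

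Of the 47 named genes, 21 changed sign under at least 1 setting, and none was called under any; the cause was not tested. After quantile normalization Dnajb9 stood at 0.00456, Herpud1 at 0.00208, Hsp90aa1 at 0.0156, Hspa8 at 0.00471 and Pdia6 at 0.00453. With array weights Hspb1 stood at 0.0812 and Pdia6 at 0.0196. Without HGI 1 and LGI 4, Hspb1 stood at 0.236, Creld2 at 0.123, Hsp90aa1 at 0.0967, Xbp1 at 0.0962, Pdia6 at 0.0702, Dnajb11 at 0.0391, Manf at 0.0382, Cct3 at 0.0293, Hspa5 at 0.0269, Pdia3 at 0.0112, Herpud1 at 0.00439 and Hspbap1 at -0.0443. With each array left out in turn the ER genes ranged from -0.21 to 0.0104 (Calr), -0.0135 to 0.0909 (Canx), -0.44 to 0.12 (Creld2), -0.28 to 0.0205 (Dnajb11), -0.19 to 0.16 (Dnajb9), -0.000317 to 0.14 (Dnajc10), -0.16 to 0.11 (Herpud1), -0.0155 to 0.20 (Hsp90b1), -0.13 to 0.12 (Hspa5), -0.32 to 0.062 (Manf), -0.12 to 0.0372 (Pdia6) and -0.14 to 0.17 (Xbp1). The cytosolic genes ranged from -0.19 to 0.0844 (Hsp90aa1), -0.41 to 0.10 (Hspa1b), -0.10 to 0.0165 (Hspa8) and -0.29 to 0.0923 (Hspb1), and those of other places from -0.0653 to 0.085 (Dnajc13), -0.0578 to 0.16 (Dnajc22) and -0.00565 to 0.19 (Hspbap1). The number of arrays, 5 per diet, and the signal, which reached a mean of 6 log2 in 68 of the 94 genes, limit the size of difference that could be detected.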
